A study of Mus musculus with 6 samples.

Results

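Galectins are lectins that bind β-galactoside sugars on glycoproteins. They are made without a secretion signal, act both inside the cell and on the cell surface, and are known in tumors for cross-linking receptors on lymphocytes and macrophages. Here 6 genes of the family were followed in tumor-associated macrophages (TAMs), namely the 5 galectin genes Lgals1, Lgals3, Lgals4, Lgals8 and Lgals9, and Lgals3bp, which encodes a secreted glycoprotein that binds galectin-3. They were selected from the 56980 genes of the table by name, with measured values of the comparison described here already known. Their levels and differences are therefore given as a description, without a test, and support no finding.

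The TAMs came from female C57BL/6 mice that were either WT or C5aR-/- on the same background, bought at 6 to 8 weeks of age. Both groups received ID8, an epithelial ovarian cancer line of the mouse, by intraperitoneal injection, and the tumors were taken after 2 months. Live CD45+CD11b+Ly6G-F4/80+ cells were sorted by flow cytometry and their poly(A) RNA was sequenced, giving 3 libraries per genotype. The receptor for the complement fragment C5a was missing from all cells of the C5aR-/- hosts, whereas the injected tumor cells were the same in both groups. The labels do not say whether each library came from a separate animal, and the study's legends give more mice per group than there are libraries here, so p-values measure only the spread between these samples.

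Expression is given as TPM, a transcript abundance corrected for transcript length that sums to the same total in every library. Since TPM keeps no depth, how deeply each library was sequenced is unknown. Differences are C5aR-/- minus WT means of log2(TPM + 1), with their standard errors from limma. This scale understates the difference of genes with low TPM. The WT libraries gave C5ar1, the targeted gene, TPM values of 86.5, 37.3 and 16.2, and the C5aR-/- libraries gave it 0.38, 0.11 and 0.05. All 3 C5aR-/- libraries were near 0, and the log2 difference was -5.04 (SE 0.56, adjusted p = 0.0666 from limma).

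The sort was checked against marker genes. The 12 macrophage genes listed had a summed TPM of 9399, 3808 and 2679 in WT TAMs 1, 2 and 3 and of 9380, 5355 and 2673 in C5aR-/- TAMs 1, 2 and 3, with Lyz2 the most abundant. These sums overlapped between the groups, with library 1 highest and library 3 lowest in both. Gene by gene, 9 of the 12 had a difference above 0 and 3 below, with a median of 0.47. Fcgr1 was the 1 gene higher without overlap (0.82), while Lyz2 differed by -0.10. Epithelial genes were present as well, with a summed TPM of 1956, 1882 and 2079 in WT and of 2315, 2265 and 1807 in C5aR-/- TAMs, Krt19 being the most abundant of 8. The libraries thus held RNA of macrophage and of epithelial genes, and in such bulk samples fewer cells of a type and less RNA per cell cannot be told apart.

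All 6 genes passed the filter, which asked for 3 or more libraries with a TPM of 1 or higher, as did 14776 genes in all. By level, Lgals1 stood far above the others, Lgals4 was lowest, and Lgals3, Lgals3bp, Lgals8 and Lgals9 lay between them. Lgals3 was higher in every C5aR-/- library than in any WT library, Lgals9 was lower, and the groups overlapped for Lgals1, Lgals3bp, Lgals4 and Lgals8. So 1 of 6 genes was higher without overlap, beside 8.84% of all genes tested, and 1 of 6 was lower without overlap, beside 12.5%. Since the genes were chosen with these values known, nothing is read from these counts.

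**Figure D1:**
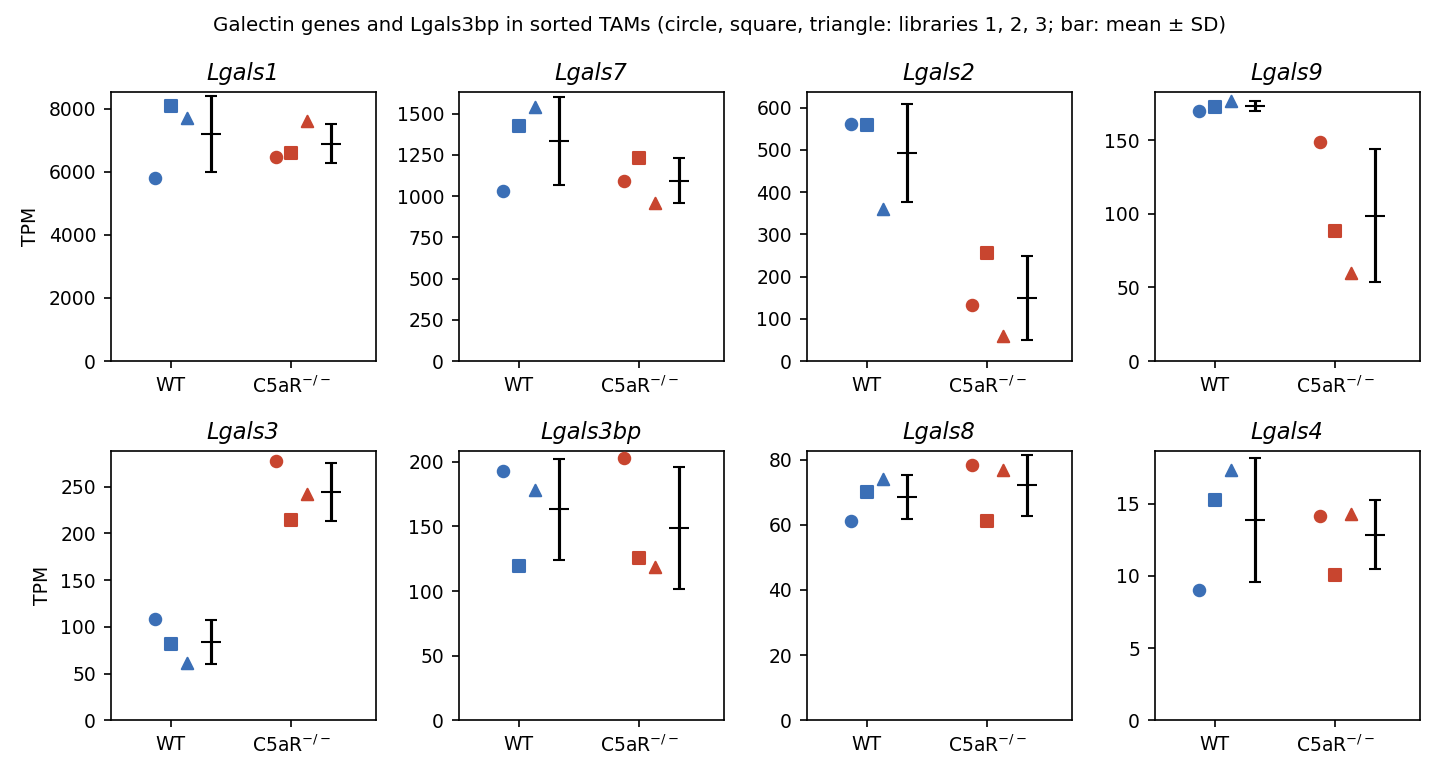
TPM of the 5 galectin genes and Lgals3bp, and of the related galectin genes Lgals2 and Lgals7, in TAMs of WT (blue) and C5aR-/- (red) mice. Each symbol is 1 library, the black bar is the mean ± SD of 3 libraries, and each vertical axis starts at 0 with its own scale. Lgals3 lies between 61.5 and 108 in WT and between 215 and 277 in C5aR-/- TAMs, while Lgals9 and Lgals2 lie lower in C5aR-/- TAMs.

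Lgals3 encodes galectin-3, the chimera-type galectin that joins a carbohydrate-binding domain to a tail that lets it form oligomers. Its TPM was 108, 81.9 and 61.5 in WT TAMs 1, 2 and 3 and 277, 215 and 242 in C5aR-/- TAMs 1, 2 and 3. Every C5aR-/- library was above every WT library, and WT TAM 3 was the lowest of the 6. The WT mean was 83.9 ± 23.4 and the C5aR-/- mean 245 ± 31.3 (SD, n = 3 each), a ratio of means of 2.91 and a log2 difference of 1.56 (SE 0.22). Ranked among all genes of a library by TPM, Lgals3 stood between place 1273 and place 2515 in WT and between place 479 and place 620 in C5aR-/- TAMs.

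Lgals9 encodes galectin-9, a tandem-repeat galectin with a pair of carbohydrate-binding domains, known as a ligand of the receptor Tim-3 and as an interferon-inducible gene. Its TPM was 170, 173 and 177 in WT TAMs and 149, 88.3 and 59.7 in C5aR-/- TAMs 1, 2 and 3. The WT libraries lay close together, within 0.05 on the log2 scale, whereas the C5aR-/- libraries spread over 1.30 and C5aR-/- TAM 1 was nearest to WT. The WT mean was 173 ± 3.32 and the C5aR-/- mean 98.8 ± 45.3 (SD, n = 3 each), a ratio of 0.571 and a log2 difference of -0.90 (SE 0.31). Without C5aR-/- TAM 3 the difference was -0.59, and without C5aR-/- TAM 1 it was -1.24.

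The ratio of Lgals3 to Lgals9 TPM was 0.637, 0.475 and 0.348 in WT and 1.87, 2.43 and 4.05 in C5aR-/- TAMs. Lgals3 was thus below Lgals9 in each WT library and above it in each C5aR-/- library. Across the 6 libraries the Pearson correlation of the log2 values of these genes was -0.69, a description over libraries that also share the group difference.

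Lgals1 encodes galectin-1, a prototype galectin of a single domain that acts as a dimer. Its TPM was 5818, 8073 and 7690 in WT and 6457, 6606 and 7597 in C5aR-/- TAMs. The lowest and the highest value were both WT libraries, so the groups overlapped, with a log2 difference of -0.05 (SE 0.25). Lgals1 was among the most abundant genes of every library, between place 7 and place 14 of all genes. It made up from 75.0% to 84.3% of the summed TPM of 10 galectin genes (all of the family in the table, Lgals3bp left out), against 0.62% to 1.40% for Lgals3 in WT and 2.53% to 3.38% in C5aR-/- TAMs. That sum was 7760, 10399 and 9921 in WT and 8201, 8472 and 9015 in C5aR-/- TAMs, with overlap.

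Lgals3bp, the ligand that binds galectin-3, is also known as an interferon-inducible gene. Its TPM was 193, 119 and 178 in WT and 203, 125 and 118 in C5aR-/- TAMs. High and low libraries occurred in both groups, and the log2 difference was -0.15 (SE 0.27). The ratio of Lgals3 to Lgals3bp was 0.562, 0.688 and 0.346 in WT and 1.36, 1.71 and 2.04 in C5aR-/- TAMs, without overlap.

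Lgals8 encodes galectin-8, a tandem-repeat galectin that binds sugars exposed on broken endosomes. Its TPM was 61.2, 70.2 and 74.2 in WT and 78.3, 61.2 and 76.8 in C5aR-/- TAMs, and its log2 difference was 0.07 (SE 0.15). The groups overlapped over nearly the whole WT range. Lgals4 encodes galectin-4, a tandem-repeat galectin best known from the intestinal epithelium. It had a TPM of 9.05, 15.3 and 17.3 in WT and of 14.2, 10.1 and 14.3 in C5aR-/- TAMs, with a log2 difference of -0.07 (SE 0.28), and its lowest and highest values were both in WT. Of 8 intestinal epithelial genes, none passed the filter and the summed TPM was 0.48 to 1.98, with Cdx1, Fabp1 and Tff3 listed at 0 in all 6 libraries. The signs of the differences of Lgals1, Lgals4 and Lgals8 changed under some of the other settings.

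The related galectin genes were not among the genes chosen. Of 6 listed, Lgals2, Lgals7, Lgals12, Lgalsl and Grifin were in the table, and Lgals2, Lgals7 and Lgalsl passed the filter. The fit over all 14776 genes with limma called 0 genes (0%) past the adjusted threshold, which asked for an adjusted p below 0.05 and a fold change of 2 or more, the smallest adjusted p being 0.0666, while 2133 genes had an unadjusted p under 0.05. At the unadjusted threshold, with the same limits on the unadjusted p and the fold change, it called 314 genes higher (2.13%) and 419 genes lower (2.84%) in C5aR-/- TAMs. Without C5aR-/- TAM 1, 349 genes passed the adjusted threshold, and 585 were higher and 635 lower at the unadjusted one.

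Lgals2 encodes galectin-2, a prototype galectin. Its TPM was 561, 560 and 359 in WT and 133, 257 and 59.5 in C5aR-/- TAMs. Every C5aR-/- library lay below every WT library, with C5aR-/- TAM 3 the lowest. Lgals2 was the 1 of these 3 genes past the unadjusted threshold, with a log2 difference of -1.92 (SE 0.51, adjusted p = 0.188 from limma), and it did not pass the adjusted one. The ratio of Lgals3 to Lgals2 was 0.193, 0.146 and 0.171 in WT and 2.08, 0.836 and 4.07 in C5aR-/- TAMs.

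Lgals7 encodes galectin-7, known from stratified epithelia, and was second in level to Lgals1. Its TPM was 1031, 1424 and 1540 in WT and 1090, 1230 and 960 in C5aR-/- TAMs, with overlapping groups and a log2 difference of -0.27 (SE 0.21, adjusted p = 0.594 from limma). Lgalsl, a galectin-like gene, was low, with a TPM of 1.48, 1.51 and 2.34 in WT and of 2.56, 4.58 and 5.95 in C5aR-/- TAMs. Its groups did not overlap, and its log2 difference of 0.91 (SE 0.31, adjusted p = 0.273 from limma) missed the fold threshold, which it passed under 5 alternatives. These were leaving out C5aR-/- TAM 1 (1.18) or WT TAM 3 (1.05), a pseudocount of 0.1 (1.20), quantile normalization (1.01) and the macrophage marker covariate (1.07), which was added after seeing the data. Lgals12 and Grifin had a TPM of at most 0.19 in any library. The median difference of the 3 genes tested was -0.27, beside -0.05 for all genes.

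The family is spread over several chromosomes, with a few close pairs (GENCODE M21, GRCm38). Lgals2 (chr15:78850860-78855529, minus strand) and Lgals1 (chr15:78926725-78930465, plus strand) are 71195 bases apart, with Gga1, Sh3bp1, Pdxp and the untested Gm49510 between them. Gga1, Sh3bp1 and Pdxp had log2 differences of 0.16, 0.06 and 0.35, and none passed the unadjusted threshold, so the low Lgals2 stood beside neighbors whose groups overlapped. Lgals4 (chr7:28833854-28841708) and Lgals7 (chr7:28863853-28866284), both on the plus strand, are 22144 bases apart. Lgals3 lies at chr14:47367751-47386160 on the plus strand, and Lgals9 and Lgals3bp lie on the minus strand at chr11:78962974-78984946 and chr11:118392751-118402092. Lgals8 lies at chr13:12439415-12464944 on the minus strand.

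Interferon-stimulated genes were examined because Lgals9 and Lgals3bp are known to respond to interferon. Of 15 tested, 14 had a difference below 0, 5 were past the unadjusted threshold lower and 0 higher, and the median log2 difference was -1.12. Of all genes tested, 44.5% had a difference above 0, 2.84% were past that threshold lower, and the median was -0.05. Ifit1, an antiviral RNA-binding protein, had a TPM of 7.69, 14.6 and 26.6 in WT and of 2.54, 1.61 and 0.85 in C5aR-/- TAMs (log2 difference -2.59, adjusted p = 0.0965 from limma). Isg15, a ubiquitin-like protein, had a TPM of 65.9, 76.0 and 158 in WT and of 42.6, 20.1 and 21.7 in C5aR-/- TAMs (log2 difference -1.76, adjusted p = 0.155 from limma). WT TAM 3 was the highest library for both, whereas Lgals9 was nearly level over the WT libraries. Ifit3, Ifi44 and Ifit2 had log2 differences of -2.15, -1.96 and -1.12, and Ifit2 missed the fold threshold without WT TAM 3 (-0.93) and with the macrophage marker covariate (-0.97). The count lower was 8 without C5aR-/- TAM 1, 8 without WT TAM 1 and 4 without WT TAM 3, when the median of the list was -0.63. The part of interferon in the level of Lgals9 was not tested.

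The bases before the starts of these genes were therefore searched. RefSeq (GRCm38.p6) gave a start for 9 of the 11 family genes in the table, Lgals1 and Lgals12 being without an entry. In the 250 bases before each start, the letters of the interferon-stimulated response element were sought on both strands, namely GAAA, any 2 bases and GAAA again. They occurred in 2.98% of 32851 promoters and in 7 of the 11 interferon-stimulated genes with an entry. Among the 9 family genes they occurred in Lgals9, on the opposite strand, 55 bases before the start, at chr11:78984970-78984979. The stretches before the RefSeq starts of Lgals9 (chr11:78984947-78985174, minus strand), of Lgals2 (chr15:78855530-78855779, minus strand) and of Lgals3 (chr14:47373610-47373812, plus strand) are printed, Lgals9 because it holds the match, and Lgals2 and Lgals3 because their log2 differences were the largest of the family genes tested. The RefSeq start of Lgals3 lies within the GENCODE gene, which begins further upstream with another transcript, so its stretch is intronic there, and the windows of Lgals7 and Lgals8 also lie within their GENCODE genes. The stretches run 5′ to 3′ on the strand of the gene, bases in an annotated exon are left out, and capitals mark the match.
Lgals9: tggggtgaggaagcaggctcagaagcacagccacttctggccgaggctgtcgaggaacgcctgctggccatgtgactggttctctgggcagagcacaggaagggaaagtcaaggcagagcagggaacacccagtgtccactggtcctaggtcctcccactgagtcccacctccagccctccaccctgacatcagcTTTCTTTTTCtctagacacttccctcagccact
Lgals2: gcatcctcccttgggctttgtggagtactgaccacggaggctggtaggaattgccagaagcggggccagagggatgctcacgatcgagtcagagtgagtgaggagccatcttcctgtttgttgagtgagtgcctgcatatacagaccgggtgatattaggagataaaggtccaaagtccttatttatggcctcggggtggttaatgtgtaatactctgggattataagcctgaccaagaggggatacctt
Lgals3: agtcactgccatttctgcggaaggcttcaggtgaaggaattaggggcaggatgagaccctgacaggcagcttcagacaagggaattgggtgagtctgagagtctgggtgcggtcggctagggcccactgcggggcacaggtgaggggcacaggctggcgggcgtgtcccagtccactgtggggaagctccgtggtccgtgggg
The letters of the GC box, GGGCGG on either strand, are in 32.7% of all promoters and occurred in Grifin, Lgals3, Lgals7 and Lgalsl, for Lgals3 in annotated exon bases that are not printed. The AP-1 letters TGANTCA (6.75% of promoters), the hypoxia response letters ACGTG (16.6%) and the TATA box letters TATAAA (12.4%) occurred in none of the 9. A match is a description of letters, not a bound site, and where there is no match only these windows lack the letters.

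Receptors and glycoproteins that galectins are known to bind numbered 30, of which 28 were tested. In this list 2 genes were past the unadjusted threshold higher and 1 lower, beside 2.13% and 2.84% of all genes tested. The median log2 difference of the list was 0.10. Without WT TAM 2 none of the list was past the threshold higher. Without WT TAM 3, or with the macrophage marker covariate, 1 was higher and 2 were lower. Muc16, a mucin that carries galectin ligands, had a TPM of 142, 147 and 148 in WT and of 39.2, 36.6 and 10.2 in C5aR-/- TAMs (log2 difference -2.52, adjusted p = 0.111 from limma). The groups were far apart, with C5aR-/- TAM 3 lowest, as it was for Lgals9 and Lgals2. Muc16 is also expressed by mesothelium, and 3 of 6 mesothelial genes (Upk3b, Lrrn4 and Upk1b) were past the unadjusted threshold lower, with a summed TPM of 1068, 1191 and 1448 in WT and of 1066, 1041 and 766 in C5aR-/- TAMs and Wt1 the most abundant. Msln, another of the 6, went the other way without overlap, with a TPM of 145, 135 and 180 in WT and of 268, 284 and 288 in C5aR-/- TAMs (log2 difference 0.88). The sort was for CD45, a leukocyte marker that mesothelial cells lack, yet mesothelial genes were present in every library. The part of mesothelial cells, or of the injected tumor cells, in the level of Muc16 was not tested.

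Among the binding partners of galectin-3, Trem2, a lipid-sensing receptor of macrophages, had a TPM of 69.1, 38.2 and 21.4 in WT and of 189, 104 and 54.5 in C5aR-/- TAMs (log2 difference 1.39, adjusted p = 0.326 from limma). Its groups overlapped, and it was no longer past the unadjusted threshold without C5aR-/- TAM 1 (0.95), C5aR-/- TAM 2 (1.38), WT TAM 2 (1.39) or WT TAM 3 (0.98). The same held without the filter (1.39) and with macrophage markers as a covariate (0.99), an alternative chosen after seeing the data. Itga5, the integrin α5 chain, was higher by 1.38 (adjusted p = 0.271 from limma), with C5aR-/- TAM 3 at a TPM of 134 against 37.4 and 45.4 in the other C5aR-/- libraries. It lost the call without C5aR-/- TAM 3 (0.82) or WT TAM 2 (1.22). Havcr2, which encodes Tim-3, the receptor of galectin-9, had a TPM of 6.0, 5.18 and 7.11 in WT and of 10.1, 8.90 and 9.84 in C5aR-/- TAMs, so that ligand and receptor lay on opposite sides. Its log2 difference of 0.59 was under the fold threshold (adjusted p = 0.242 from limma), as were those of Cd63 (0.72, adjusted p = 0.0922 from limma), a late endosome tetraspanin, and of Tfrc (0.87, adjusted p = 0.113 from limma), the transferrin receptor. Tfrc passed it without C5aR-/- TAM 2 (1.01).

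Galectin ligands depend on the enzymes that build and cap N- and O-glycans. The 19 building enzymes had a median of -0.12, and of all genes tested 2.13% were past the unadjusted threshold higher and 2.84% lower. Of the 19, 1 was past it higher and 0 lower. It was B3gnt3, which extends core O-glycans, with a TPM of 5.0, 3.28 and 9.91 in WT and of 16.2, 22.7 and 21.2 in C5aR-/- TAMs (log2 difference 1.67, adjusted p = 0.134 from limma). Every C5aR-/- library was above every WT library. Without C5aR-/- TAM 3, 2 of the enzymes were past it higher. Mgat4b, B4galt2 and C1galt1 had log2 differences of 0.41, 0.48 and -0.50, all under the fold threshold. With 1 library left out, the difference of C1galt1 ran from -0.69 to -0.32.

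Sialic acid caps galactose and blocks the binding of many galectins. Of 8 sialyltransferases and sialidases, 0 were past the unadjusted threshold higher and 1 lower, beside 2.13% and 2.84% of all genes tested. The median of the 8 was -0.08. The median was above 0 at a TPM of 5 or more (0.035) and without C5aR-/- TAM 3 (0.0028) or WT TAM 1 (0.034), and was -0.23 without C5aR-/- TAM 2 and -0.21 without WT TAM 2 or with the macrophage marker covariate. St3gal6, an α2,3-sialyltransferase, had a TPM of 13.7, 15.3 and 10.2 in WT and of 3.43, 8.87 and 1.77 in C5aR-/- TAMs (log2 difference -1.49, adjusted p = 0.235 from limma). Its groups did not overlap, and it lost the call without WT TAM 2 (-1.37). St6gal1, the α2,6-sialyltransferase that caps galectin-1 ligands, differed by 0.25, and St3gal1 and Neu3 by -0.42 and -0.64, with overlap in all 3. With 1 library left out, St6gal1 ran from 0.11 to 0.39, St3gal1 from -0.58 to -0.25 and Neu3 from -0.92 to -0.26.

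Galectin-3, galectin-8 and galectin-9 also recruit repair and autophagy proteins to damaged lysosomes. Of 21 genes of this response, 1 was past the unadjusted threshold higher and 0 lower, beside 2.13% and 2.84% of all genes tested. The median of the 21 was -0.10. Trim16, a ubiquitin ligase that binds galectin-3, had a TPM of 6.73, 3.38 and 5.09 in WT and of 10.98, 9.83 and 13.6 in C5aR-/- TAMs (log2 difference 1.07, adjusted p = 0.169 from limma). It was higher in all 3 C5aR-/- libraries, as Lgals3 was, and missed the threshold without C5aR-/- TAM 3 (0.95) or WT TAM 2 (0.85). Gabarapl2 and Tax1bp1, which act in autophagy, differed by -0.45 and -0.31, and Ulk1, a kinase that starts it, by 0.38.

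Lgals3 is a known gene of lipid-associated macrophages, and 15 other genes of that state were tested. Of these, 2 were past the unadjusted threshold higher and 0 lower, beside 2.13% and 2.84% of all genes tested. The median of the 15 was 0.38. The count higher was 1 without C5aR-/- TAM 1, WT TAM 2 or WT TAM 3, and without the filter. It was 4 without C5aR-/- TAM 3, and 3 without WT TAM 1 or with quantile normalization or median-of-ratios scaling. The count lower was 2 without C5aR-/- TAM 1 and 1 without WT TAM 3. With a replicate block, 3 genes were higher and 1 was lower. The median was 0.03 without C5aR-/- TAM 1 and 0.73 without C5aR-/- TAM 3. The 12 general macrophage genes had a median of 0.47, and with their mean as a covariate, an alternative added after seeing the data, the median of this list was 0.07, with 1 gene higher and 2 lower. The log2 difference of Lgals3 was 1.44 with that covariate. Spp1, which encodes osteopontin, had a TPM of 48.0, 48.3 and 49.6 in WT and of 184, 226 and 344 in C5aR-/- TAMs (log2 difference 2.30, SE 0.23, adjusted p = 0.0666 from limma). The WT libraries were nearly equal and every C5aR-/- library was several times higher. The other gene of this list past the threshold was Trem2, and Lipa, the lysosomal acid lipase, and Cd9, a tetraspanin, had log2 differences of 0.98 and 0.38. Lipa was past the unadjusted threshold with quantile normalization (1.01) or median-of-ratios scaling (1.03). It also passed without C5aR-/- TAM 2 (1.06), C5aR-/- TAM 3 (1.24) or WT TAM 1 (1.15). Its difference was 0.64 without C5aR-/- TAM 1, 0.83 without WT TAM 3 and 0.76 with the macrophage marker covariate. Of 7 epithelial genes tested, 1 (Cldn3, a tight junction gene) was past the unadjusted threshold higher, and Krt8, a keratin, had a TPM of 465, 455 and 460 in WT and of 758, 624 and 743 in C5aR-/- TAMs. The list went both ways, with 3 genes above and 4 below 0 and a median of -0.09, Krt19 and Krt7 being at -0.45 and -0.69, and its summed TPM overlapped between the groups. Epithelial cells lack CD45, for which the cells were sorted, yet epithelial genes were present in every library. The part of epithelial cells in the level of Lgals3 was not tested.

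**Figure D2:**
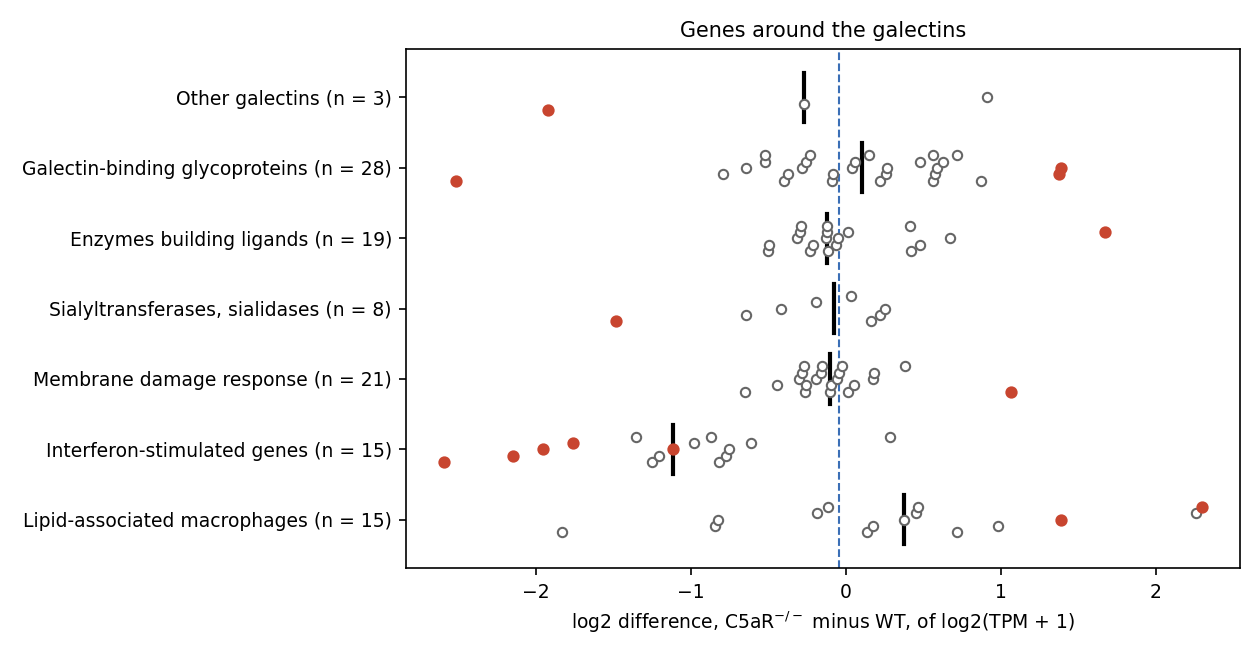
Log2 differences (C5aR-/- minus WT, of log2(TPM + 1)) of the tested genes in 7 lists around the galectins, 1 circle per gene. Filled red circles were past the unadjusted threshold (p below 0.05 and a fold change of 2 or more), the black bar is the median of the list, the dashed line is the median of all genes (-0.05), and the height within a row only keeps circles apart. The interferon-stimulated genes lie mostly below 0 with a median of -1.12, and the other medians lie between -0.27 and 0.38.

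Other cell types were followed beside Lgals2 and Lgals9, the galectin genes that were lower. Of all genes tested, 2.13% were past the unadjusted threshold higher and 2.84% lower. The 8 genes of large peritoneal macrophages all had a difference below 0, 3 of them (Timd4, Icam2 and Alox15) past the unadjusted threshold, with a summed TPM of 880, 349 and 256 in WT and of 272, 216 and 118 in C5aR-/- TAMs and Alox15 the most abundant. Of 6 neutrophil genes tested, 2 (S100a8 and S100a9) were past it lower, with a summed TPM of 965, 2348 and 613 in WT and of 208, 394 and 27.6 in C5aR-/- TAMs, led by S100a9. The peritoneal macrophage sums overlapped between the groups and the neutrophil sums did not, although the sort took cells without Ly6G, a neutrophil marker. Of 6 mast cell genes, 5 (Cpa3, Mcpt4, Cma1, Tpsb2 and Fcer1a) were past the unadjusted threshold lower and 1 (Kit) higher, with a median of -3.14. Their summed TPM was 104, 84.6 and 140 in WT and 59.6, 73.6 and 87.8 in C5aR-/- TAMs, with Kit the most abundant. Lower calls were also found for 2 of 6 fibroblast genes (Col1a2 and Thy1), 1 of 6 monocyte genes (Ly6c2) and 1 of 8 T cell genes (Cd2), with medians of -0.75, -1.04 and -0.33. Members of these lists also went the other way, such as Col1a1 (1.91), with a TPM of 3.52, 7.13 and 10.8 in WT and of 1.21, 43.3 and 236 in C5aR-/- TAMs, and the monocyte genes F13a1 (0.80) and Ccr2 (0.15). Fibroblasts lack CD45, and T cells and mast cells as a rule lack F4/80, for which the cells were sorted. Genes of each of these lists were nonetheless present in every library. The part of these cell types in the levels of Lgals2 and Lgals9 was not tested.

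The genes most like each family gene were sought by Pearson's r of log2(TPM + 1) over the 6 libraries, among 9196 genes with a mean TPM of at least 10. These libraries share the group difference and no chance value was worked out, so the matches and their counts are a description only. Lgals3 was most like Nav1 (0.997), Dusp4 (0.991) and Aurka (0.991). Lgals9 was most like Nfe2l2 (0.999), Rnaset2b (0.998) and Ppt1 (0.995), and 203 genes reached 0.95 with it, against 35 for Lgals3. Lgals1 was most like Gramd4 (0.988), Dtymk (0.986) and Pign (0.985), and Lgals3bp was most like Zbtb22 (0.981), Plekhf2 (0.960) and Mal2 (0.952). Lgals4 was most like Eme2 (0.993), Nub1 (0.989) and Hdhd5 (0.985), and Lgals8 was most like Gm35240 (0.992), Rnf166 (0.977) and Ccdc107 (0.975). Within the family, Lgals4 went with Lgals8 (0.85) and with Lgals1 (0.83), all 3 of them genes whose groups overlapped.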

How the data were processed

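The authors deposited TPM per gene for 6 libraries, and their mean columns equal the library means. The submitters' processing notes list fastp, HISAT2, StringTie, RSEM, DESeq2 and mm10. The methods name StringTie, with FPKM, for expression levels. Tool versions, and which tool gave the deposited TPM, are not given in the sources used here, and counts were not analysed here. Symbols and coordinates came from GENCODE M21 and promoters from RefSeq (GRCm38.p6). Groups came from the labels. Genes reaching a TPM of 1 in 3 or more libraries were tested with limma 3.58.1 in R 4.3.3 (lmFit, eBayes with trend, Benjamini-Hochberg adjustment) on log2(TPM + 1), without a block. The fit was also run on simulated data, whose outcome is not given here. Tables and plots used Python 3.11.15, pandas 2.3.3, numpy 2.4.6 and matplotlib 3.10.9. Named genes are the 6 family genes, C5ar1, in each pathway list up to 4 genes with the smallest p and any past the unadjusted threshold, the 3 genes most like each family gene, and the most abundant marker of a cell type. Other markers, and the neighbors of Lgals2, were named after their values were seen. The family genes and lists were chosen with earlier results of these data known. The alternatives were other pseudocounts, filters and scalings, a replicate block, eBayes without trend and leaving out each library. A covariate of macrophage markers was added after seeing the data.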

Additional observations from a re-analysis of the deposited data

How the results depend on the processing

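Over 14 alternatives, the log2 difference kept its sign for Lgals3 (1.36 to 1.76), Lgals9 (-1.24 to -0.59) and Lgals3bp (-0.39 to -0.0034), and changed it in some for Lgals1 (-0.20 to 0.04), Lgals4 (-0.33 to 0.10) and Lgals8 (-0.0098 to 0.18). Lgals2 was past the unadjusted threshold in all 14 (-2.43 to -1.38), with an adjusted p from limma between 0.118 and 0.632. The count of genes past the adjusted threshold was 0, against 2 for eBayes without trend, 10 with the macrophage marker covariate, which was chosen after seeing the data, and 0 to 349 with 1 library left out, the highest without C5aR-/- TAM 1. The cause was not tested. Counting the main fit, Spp1 was past the adjusted threshold in 3 of 15 settings and Muc16 in 2 of 15. C5ar1 was past it in 2 of 12, and Ifit1 and Isg15 in 1 of 15 each. At the unadjusted threshold, 314 genes were higher and 419 lower. A TPM of at least 5 gave 201 and 274, with fewer genes tested, and leaving out 1 library gave 240 to 585 and 278 to 635. The median of the other galectins went from -0.27 to -1.10 at a TPM of at least 5, since Lgalsl was then not tested, and was -0.07 without a filter, when Lgals12 and Grifin were tested too. With 1 library left out it ran from -0.44 (without WT TAM 1) to -0.16 (without WT TAM 3). Over the alternatives, the median of the galectin-binding glycoproteins ran from 0.02 to 0.26, of the building enzymes from -0.21 to -0.04, of the sialyltransferases and sialidases from -0.23 to 0.04, of the membrane damage response from -0.18 to -0.05, of the interferon-stimulated genes from -1.48 to -0.63 and of the lipid-associated macrophage genes from 0.03 to 0.73. The fit with a replicate block called 0 genes at the adjusted threshold, and 344 were higher and 467 lower at the unadjusted one. Libraries of the same number deviated together with correlations of 0.19, -0.01 and 0.27. For libraries of different numbers the correlations ran from -0.23 to 0.09. Whether the numbers pair the samples is not given by the labels and cannot be told from these values. C5ar1 could not be tested without any 1 of the WT libraries, because it then failed the filter. Without counts, depth sets no stated limit on these values.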
